A study of Mus musculus with 12 samples.

Results

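The genes described here are 10 established markers of the cells that wrap blood vessels. Smooth muscle is represented by Acta2, Tagln, Cnn1, Myh11 and Smtn, and pericytes by Vtn, Rgs5, Pdgfrb, Cspg4 and Notch3. They and the other gene lists below were chosen with earlier results of these data known. Counts of called genes set beside shares of all tested genes are therefore descriptions only. The members were matched by symbol, and all 10 were found among the 54146 gene records of each mouse heart library. All 10 also passed the filter on low counts, which left 15477 genes for testing. There were 3 groups of 4 libraries, each taken 6 weeks after surgery. Wild-type mice with a sham operation are called Sham WT. Wild-type mice with transverse aortic constriction, a narrowing of the aorta that loads the left ventricle with pressure, are called TAC WT. Mice knocked out for Nron, a long noncoding RNA known as a repressor of the transcription factor NFAT, also had the constriction and are called TAC KO. All libraries were made from polyadenylated heart RNA. No knockout with sham surgery was analysed here, and the sources used here do not give the allele, strain background, age or sex. Whether each library came from its own animal is not stated by the labels. A p-value here therefore reflects the spread among the libraries, which may be technical.

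Arteries and arterioles are wrapped by smooth muscle cells, whose actin and myosin filaments contract to set vessel width. Capillaries are covered by pericytes, which lie within the basement membrane and are recruited when endothelial cells release platelet-derived growth factor B onto the receptor encoded by Pdgfrb. Smooth muscle contractile genes are controlled by serum response factor (SRF) with myocardin-family partners, through DNA elements called CArG boxes. Notch3 is the main Notch receptor of mural cells, the collective name for both cell types. In the heart, mural cells are a small share of the tissue beside cardiomyocytes, endothelial cells and fibroblasts. In whole-heart RNA, fewer cells of a type and less RNA per cell cannot be told apart.

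Libraries held 26288519 to 35945770 counts, and a member had between 56 and 29743 counts in a library. Both annotated records of Nron had 0 counts in all 12 libraries, so the genotype could not be checked from its level. Cardiomyocyte markers dominated: 8 of them summed to between 65386 and 80652 CPM (counts scaled to library size) per library, against 1295 to 1651 CPM for the 10 mural markers. The 4 atrial genes summed to at most 2.93 CPM, the 4 glial genes to at most 10.1 CPM and the 4 fat-cell genes to at most 6.76 CPM, with no gene of these lists at 0 in every library. Libraries also differed in how counts varied with base composition. For this, each gene's log2 level was taken as a deviation from its own mean over the 12 libraries. The median deviation of GC-rich genes minus that of GC-poor genes was 0.104 to 0.429 in TAC KO. It was -0.149 to -0.041 in the 8 wild-type libraries. For long minus short transcripts it was -0.256 to -0.148 in TAC KO, against -0.035 to 0.192 in the wild-type libraries. Through the shared mean, the value of a library is relative to the others.

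Promoter windows from RefSeq (GRCm38.p6, 250 bases before to 50 after the gene start) were found for 7 of the 10 members, namely Acta2, Cnn1, Smtn, Vtn, Rgs5, Cspg4 and Notch3. Those of Cnn1, Smtn and Vtn are shown because these genes were higher in TAC KO than in TAC WT, and short sites of Acta2 because it alone had matches in the looser search given below. Each stretch is the part of the window outside annotated exons and runs 5′ to 3′ on the gene's strand. That of Smtn lies inside the gene's annotated span, before the start that RefSeq gives. Capitals mark matches to GGAATG, the core bound by TEAD factors, or TGGGAA, the core bound by RBPJ, the DNA-binding partner of Notch, on either strand. CATTCC and TTCCCA are the same cores read on the other strand. The Cnn1 stretch (chr9:22099003-22099215, plus strand), the Smtn stretch (chr11:3539324-3539542, minus strand) and the Vtn stretch (chr11:78498870-78499090, plus strand) read as follows.
Cnn1: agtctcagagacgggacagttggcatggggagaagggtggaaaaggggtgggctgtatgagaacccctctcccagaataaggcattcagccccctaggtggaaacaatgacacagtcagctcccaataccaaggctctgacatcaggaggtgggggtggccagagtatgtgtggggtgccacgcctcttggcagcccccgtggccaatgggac
Smtn: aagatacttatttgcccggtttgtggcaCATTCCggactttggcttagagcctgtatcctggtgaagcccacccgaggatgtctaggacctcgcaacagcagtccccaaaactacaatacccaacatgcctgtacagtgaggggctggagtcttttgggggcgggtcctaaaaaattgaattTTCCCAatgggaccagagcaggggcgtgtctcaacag
Vtn: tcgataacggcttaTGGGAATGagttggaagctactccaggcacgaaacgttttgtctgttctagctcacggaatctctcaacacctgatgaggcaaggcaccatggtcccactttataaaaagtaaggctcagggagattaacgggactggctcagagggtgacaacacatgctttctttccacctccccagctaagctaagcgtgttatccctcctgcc

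Cnn1 carried neither core. Smtn carried 1 TEAD core and 1 RBPJ core, and the Vtn stretch held a pair of cores that overlap each other as TGGGAATG. In the windows as a whole, 3 of 7 members held a TEAD core (Acta2, Smtn and Vtn), against 14.7% of all 32851 RefSeq windows of this length. The RBPJ core was present in the same 3 genes, against 25.6% of all windows. No window of a member held a full CArG box (CC, then 6 letters A or T, then GG, either strand), which 1.63% of all windows did. A search allowing 1 mismatch, chosen after the data were seen, found CArG-like sites in Acta2 alone among the 7, against 8.5% of all windows. These sites fall in a first exon annotated for Acta2 in GENCODE M21, at chr19:34255438-34255467 and chr19:34255388-34255417 on the minus strand, with the CArG-like letters in capitals.
Acta2 first site: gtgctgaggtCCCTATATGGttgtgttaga
Acta2 second site: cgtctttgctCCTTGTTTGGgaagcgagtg
The second site overlaps the RBPJ core of Acta2, whose first 3 letters are its last 3 capitals. A letter match is a description of the sequence and no evidence of binding.

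Levels of different genes were compared as CPM per kilobase of exon. In Sham WT, Rgs5, a regulator of G-protein signalling used as a pericyte marker, was highest at 160 CPM per kb. Acta2, the smooth muscle alpha-actin, followed at 88.5, and Smtn, the actin-binding protein smoothelin of contractile smooth muscle, at 53.7. Tagln was at 20.0 and Pdgfrb at 15.9, with overlapping library ranges. Opposite-strand genes overlap 67.86% of the exonic bases of Tagln. Its level per kb, and its ratio to other genes, may therefore depend on whether counting used strand, which is not stated. Below them came Vtn at 12.9, Notch3 at 9.84 and Myh11 at 8.49 CPM per kb, and the ranges of Notch3 and Myh11 overlapped. Cspg4 at 3.1 and Cnn1 at 1.02 CPM per kb closed the order. TAC WT had the same order, from Rgs5 at 164 to Cnn1 at 1.07 CPM per kb, with overlapping ranges for Tagln and Pdgfrb and for Vtn and Notch3. In TAC KO, Rgs5 was at 128, Acta2 at 75.5 and Smtn at 43.7 CPM per kb. Tagln, at 33.1, overlapped Smtn there, and Vtn, at 19.7, stood beside Pdgfrb at 19.5.

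**Figure D1:**
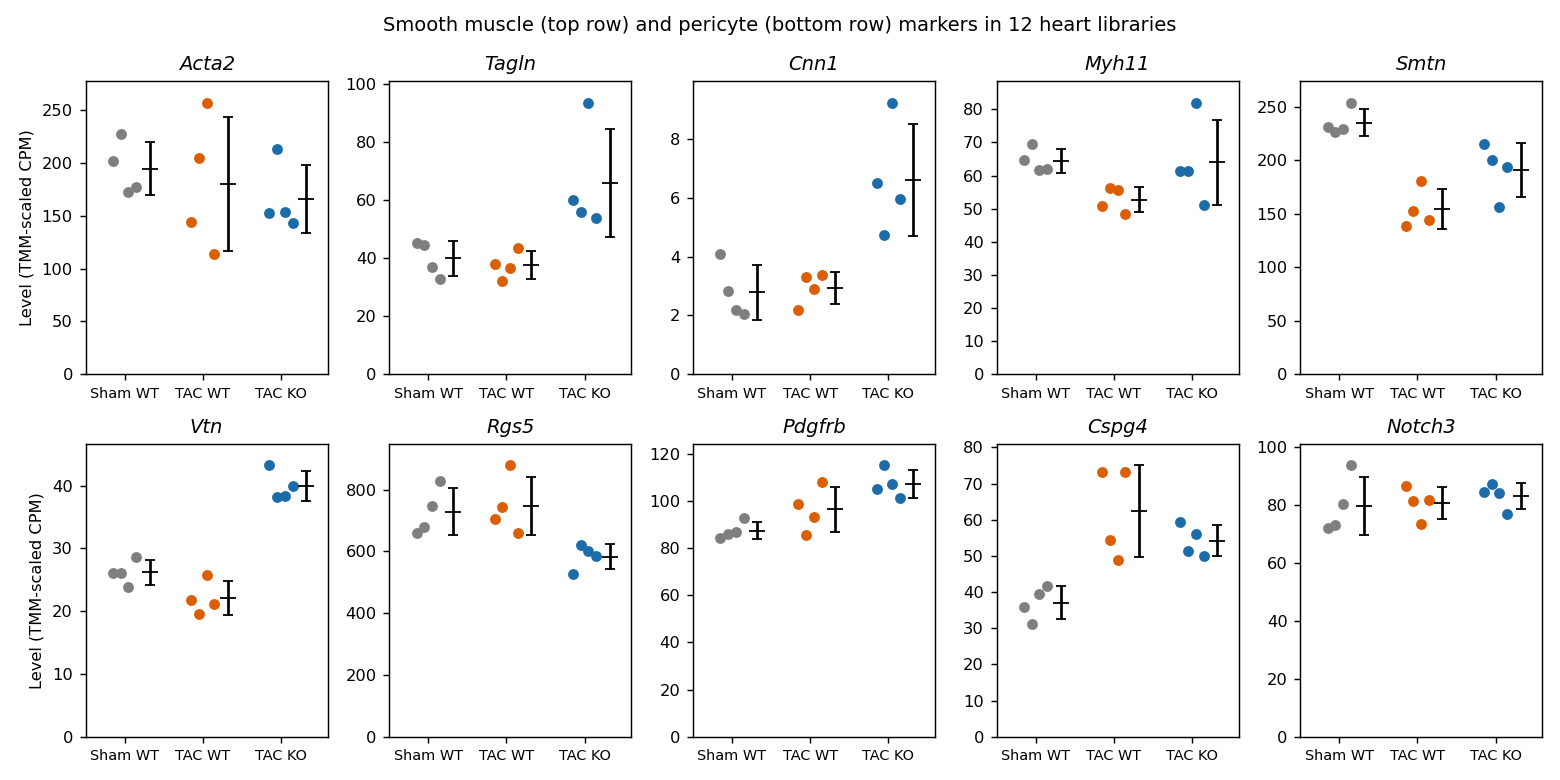
Level of each marker in the 12 libraries (points, TMM-scaled CPM from 0, a separate scale for each gene), with the mean and SD of 4 libraries beside each group. The 4 TAC KO libraries lie above all 8 wild-type libraries for Tagln, Cnn1 and Vtn, and below all 8 for Rgs5.

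The first comparison, TAC WT with Sham WT, shows how wild-type hearts differed after constriction. Cspg4 rose and Smtn fell, and the other 8 markers did not pass the test. The count of 2 of 10 members called compares with 19.7% of all tested genes. One direction at a time, 9.67% of all genes were higher and 10% lower. For the members, 3 of 10 had groups that did not overlap, against 24.7% of all. The median log2 change was -0.03 over the members and -0.0004 over all tested genes.

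Smtn was at 231, 227, 229 and 254 CPM in Sham WT and at 139, 153, 181 and 144 CPM in TAC WT. Every TAC WT library lay below every Sham WT library. The log2 change was -0.61 (SE 0.10, 95% interval -0.82 to -0.40, edgeR adjusted p = 0.000706). Myh11 encodes the smooth muscle myosin heavy chain. Its levels were 64.8, 69.5, 61.6 and 62.1 CPM in Sham WT and 50.7, 56.3, 55.5 and 48.4 CPM in TAC WT. The Myh11 groups did not overlap either, but its log2 change of -0.29 (SE 0.11) missed the threshold (edgeR adjusted p = 0.0804). It passed with voom, with no filter on low counts and with the 2 groups fitted alone (adjusted p = 0.0393, 0.0371 and 0.0103).

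Acta2 spread widely after constriction. It stood at 202, 227, 172 and 177 CPM in Sham WT and at 144, 205, 257 and 114 CPM in TAC WT. The TAC WT libraries lay on both sides of the Sham WT range. The interval of its log2 change ran from -0.54 to 0.32 (edgeR adjusted p = 0.746). Tagln, the actin-binding protein transgelin, was at 39.8 ± 5.88 CPM in Sham WT and 37.5 ± 4.76 in TAC WT (SD, n = 4), a log2 change of -0.09 with an interval of -0.44 to 0.26. Cnn1, the actin-binding protein calponin, was the least abundant at 2.79 ± 0.94 and 2.94 ± 0.544 CPM, and its interval ran from -0.46 to 0.58.

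Cspg4 encodes NG2, a chondroitin sulfate proteoglycan on the pericyte surface. It was at 35.9, 31.2, 39.4 and 41.7 CPM in Sham WT and at 73.1, 54.5, 48.8 and 73.2 CPM in TAC WT. All TAC WT libraries lay above all Sham WT libraries, with TAC WT 1 and TAC WT 4 the highest. The log2 change was 0.75 (SE 0.13, 95% interval 0.48 to 1.03, edgeR adjusted p = 0.000937), or 1.69-fold. Vtn, the adhesive glycoprotein vitronectin, moved from 26.1 ± 2.0 to 22.1 ± 2.64 CPM (SD, n = 4), and its log2 change of -0.24 missed the threshold (edgeR adjusted p = 0.0582). Rgs5 was at 729 ± 76.3 and 746 ± 94.5 CPM, with an interval of -0.17 to 0.24. The growth factor receptor Pdgfrb was at 87.4 ± 3.6 and 96.5 ± 9.6 CPM, with an adjusted p of 0.18 by edgeR. Notch3 was at 79.6 ± 9.95 and 80.7 ± 5.51 CPM, with an interval of -0.16 to 0.20.

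Genes of other cell types moved in the same comparison, in which 9.67% of all tested genes were higher and 10% lower. Of 9 tested activated fibroblast genes, 7 rose and none fell, with Postn at a log2 change of 2.46. Their list summed to 438 to 552 CPM in Sham WT and 724 to 1303 CPM in TAC WT. It was highest in TAC WT 4 and TAC WT 1, as Cspg4 was. With TAC WT 1 or TAC WT 4 left out, 1 at a time, the log2 change of Cspg4 was 0.67 and still passed. No fit left out both. The part of these cells in the Cspg4 result was not tested. Of 6 genes listed for the elastic vessel wall, 3 rose, namely Mfap4 (2.0), Mfap5 (1.52) and Lox (1.37), and the other 3 did not pass. Which cells made the RNA of these 6 genes was not tested. None of 10 endothelial markers passed by edgeR, where 3 were higher at an unadjusted p under 0.05, and DESeq2 called 1 and voom 2. None of 7 macrophage markers passed by edgeR, DESeq2 or voom, with 0, 0 and 2 at an unadjusted p under 0.05. Of 8 cardiomyocyte markers 2 fell.

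The second comparison, TAC KO with TAC WT, shows how knockout and wild-type hearts differed after the same surgery. Tagln, Cnn1, Vtn and Smtn rose and Rgs5 fell. That is 5 of 10 members called, against 33.0% of all tested genes, with 4 higher (15.7% of all) and 1 lower (17.3% of all). The groups did not overlap for 4 members, against 28.5% of all genes. The median log2 change was 0.22 over the members and -0.0021 over all tested genes.

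**Figure D2:**
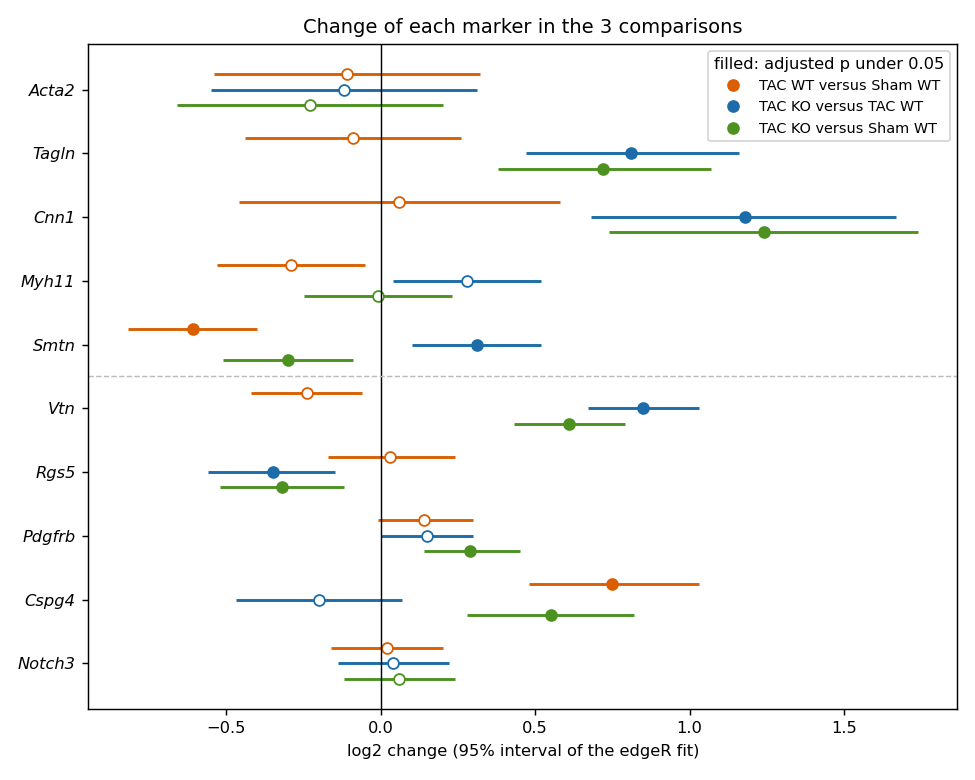
Fitted log2 change of each marker (points) with its 95% interval (lines) in the 3 comparisons, smooth muscle markers above the dashed line and pericyte markers below it, filled where the adjusted p was under 0.05. Tagln, Cnn1 and Vtn lie to the right of 0 in both comparisons with TAC KO (0.61 to 1.24), and Rgs5 to the left (-0.35 and -0.32).

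Cnn1 had the largest difference among the 10 genes. It stood at 2.19, 3.29, 2.89 and 3.38 CPM in TAC WT and at 6.49, 4.72, 9.23 and 5.95 CPM in TAC KO. All TAC KO libraries were above all TAC WT libraries. The log2 change was 1.18 (SE 0.23, 95% interval 0.68 to 1.67, edgeR adjusted p = 0.00192), or 2.26-fold. Tagln was at 37.8, 31.9, 36.6 and 43.5 CPM in TAC WT and at 60.0, 55.7, 93.4 and 53.9 CPM in TAC KO. Its groups were also apart, and its log2 change by edgeR was 0.81 (SE 0.16, adjusted p = 0.00198). TAC KO 3 was the highest library for both genes. Without it, the log2 changes were 0.97 for Cnn1 and 0.59 for Tagln, and both still passed the test. Opposite-strand genes Pcsk7 and Gm48529 overlap 67.86% of the exonic bases of Tagln, and no source used here states whether counting was strand-specific. Pcsk7 was at 20.5 to 25.2 CPM in TAC WT against 20.3 to 24.8 CPM in TAC KO, and Gm48529 at 1.48 to 1.89 against 1.63 to 1.82 CPM.

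Smtn, at 215, 200, 156 and 194 CPM in TAC KO, overlapped TAC WT, whose highest library was at 181 CPM. Its log2 change was 0.31 (SE 0.10, edgeR adjusted p = 0.0251). The call was lost in 6 of the alternatives, including the fit of the 2 groups alone (adjusted p = 0.0553) and the fit without each library's GC and length trends (log2 0.20, adjusted p = 0.146). Leaving out TAC WT 1, TAC WT 4, TAC KO 1 or TAC KO 2 also lost it (adjusted p = 0.0735, 0.06, 0.0744 and 0.0546).

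Myh11 was at 61.4, 61.4, 82.0 and 51.2 CPM in TAC KO, so that 1 library fell inside the TAC WT range. The log2 change of 0.28 (SE 0.11) missed the threshold (edgeR adjusted p = 0.0664). It passed without TAC KO 4 (log2 0.37, adjusted p = 0.0152) and was 0.14 without TAC KO 3. Acta2 was at 153, 213, 154 and 143 CPM in TAC KO, within the TAC WT range in all 4 libraries. Its interval ran from -0.55 to 0.31.

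The smooth muscle markers did not keep a fixed ratio to each other. Per kb of exon, Cnn1 was 0.12 to 0.194 of Myh11 in TAC WT, below the 0.214 to 0.323 of TAC KO in every library. Tagln was 0.158 to 0.423 of Acta2 in TAC WT, against 0.289 to 0.668 in TAC KO, and TAC WT 1 (0.289) and TAC WT 4 (0.423), the libraries lowest in Acta2 in that group, reached the TAC KO range.

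**Figure D3:**
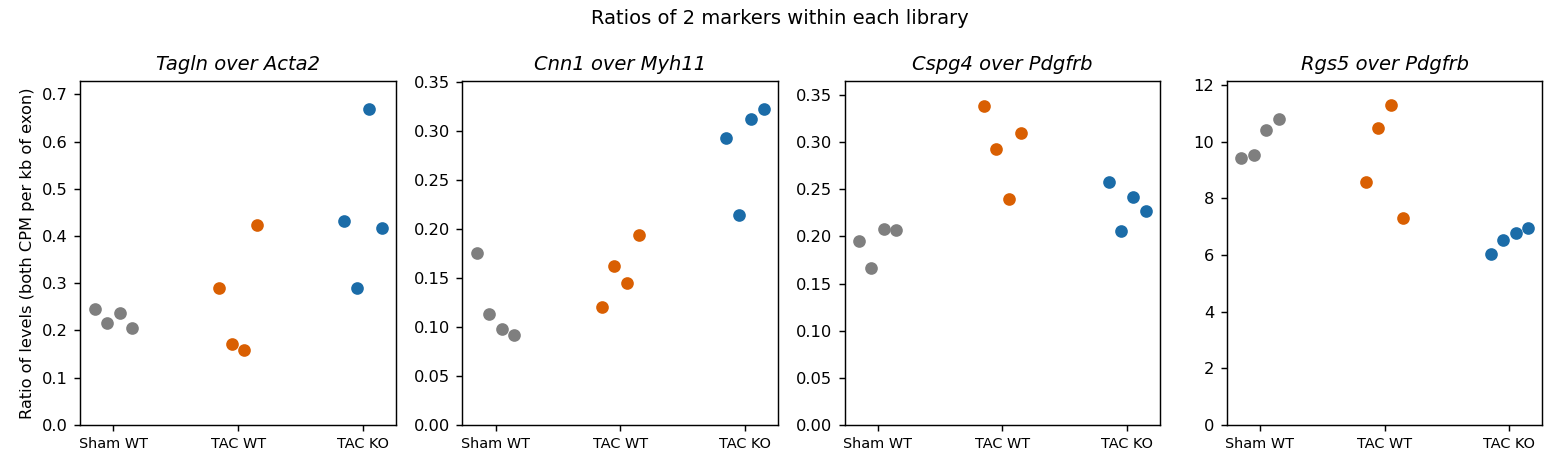
Ratio of 2 markers within each library, both as CPM per kb of exon, 1 point per library, with GC and length trends not removed. Cnn1 over Myh11 is higher in all TAC KO libraries (0.214 to 0.323) than in all wild-type libraries, and Rgs5 over Pdgfrb is lower in TAC KO (6.03 to 6.96) than in all wild-type libraries.

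Vtn had the smallest adjusted p of the 10 genes. It was at 21.8, 19.5, 25.8 and 21.2 CPM in TAC WT and at 43.2, 38.1, 38.3 and 40.0 CPM in TAC KO. All TAC KO libraries were higher than all TAC WT libraries. The log2 change was 0.85 (SE 0.08, 95% interval 0.67 to 1.03, edgeR adjusted p = 2.14e-05), or 1.81-fold. Rgs5 went the other way. Its levels were 705, 743, 878 and 658 CPM in TAC WT and 527, 621, 600 and 585 CPM in TAC KO. The groups did not overlap, and the log2 change was -0.35 (SE 0.09, edgeR adjusted p = 0.0111). Rgs5 has the lowest GC content of the 10 genes, 41.14% in its longest transcript. After removal of each library's trends with GC content and length, its log2 change was -0.17 and the call was lost (adjusted p = 0.147). The same step left Cnn1 at 1.10, Tagln at 0.70 and Vtn at 0.70, all still called.

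**Figure D4:**
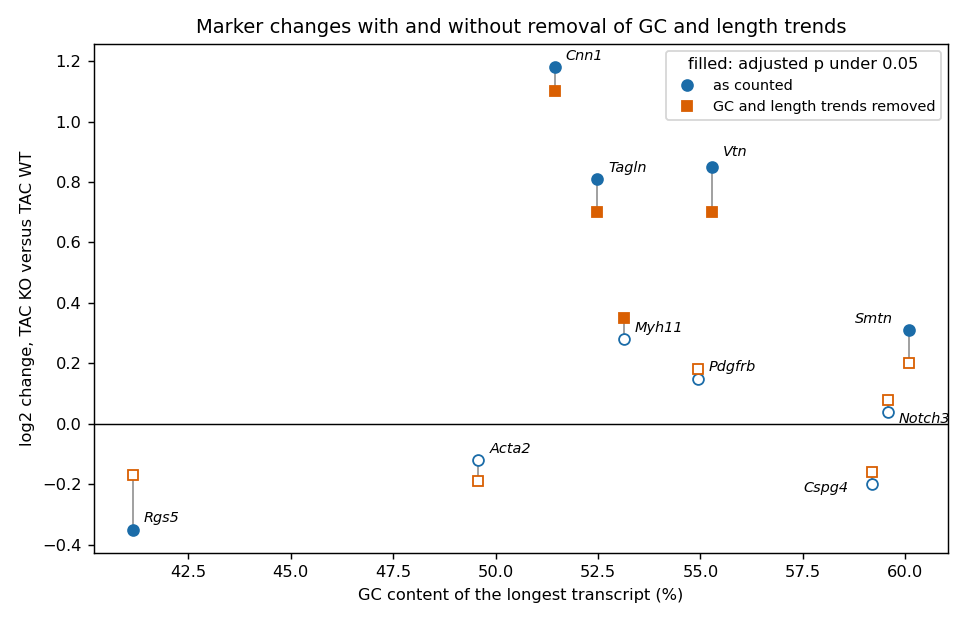
Log2 change of each marker between TAC KO and TAC WT against the GC content of its longest transcript, as counted (circles) and with the GC and length trends of each library removed (squares), filled where the adjusted p was under 0.05. Rgs5 and Smtn lose their calls, Myh11 gains one at 0.35, and Cnn1, Tagln and Vtn keep theirs.

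The other pericyte markers did not pass. Pdgfrb was at 98.8, 85.5, 93.3 and 108 CPM in TAC WT and at 105, 115, 107 and 101 CPM in TAC KO, a log2 change of 0.15 (edgeR adjusted p = 0.119). Cspg4 was at 59.3, 51.4, 56.2 and 50.1 CPM in TAC KO, inside the wide TAC WT range, with an interval of -0.47 to 0.07. Notch3 was at 83.0 ± 4.49 CPM in TAC KO (SD, n = 4), and its log2 change of 0.04 had an adjusted p of 0.743 by edgeR. Rgs5 thus stood at 6.03 to 6.96 times the level of Pdgfrb per kb in TAC KO, and at 7.32 to 11.3 times in TAC WT. The GC and length trends were not removed from these ratios.

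The third comparison, TAC KO with Sham WT, differs in both surgery and genotype, and shares its libraries with the others. It called 7 of 10 members, against 27.6% of all tested genes, with 5 higher (12.8% of all) and 2 lower (14.8% of all). The groups of those 7 did not overlap, against 30.7% of all genes. Median log2 changes were 0.18 over the members and 0.0003 over all tested genes. Cnn1 (log2 1.24), Tagln (0.72), Vtn (0.61), Cspg4 (0.55) and Pdgfrb (0.29) were higher in TAC KO, with edgeR adjusted p from 0.000212 to 0.00814. Smtn (-0.30, edgeR adjusted p = 0.0364) and Rgs5 (-0.32, edgeR adjusted p = 0.0216) were lower. The Smtn call was lost without any 1 of the Sham WT libraries, without TAC KO 3 or TAC KO 4, and with upper-quartile scaling. The Rgs5 call was lost without Sham WT 3, Sham WT 4 or TAC KO 1, and after removal of GC and length trends (log2 -0.13, adjusted p = 0.305). Acta2 (-0.23), Myh11 (-0.01) and Notch3 (0.06) did not pass.

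Cspg4 and Pdgfrb passed against Sham WT, and not against TAC WT. Within Sham WT libraries, Cspg4 was 0.167 to 0.208 of Pdgfrb per kb. This ratio was 0.24 to 0.339 after constriction in wild-type hearts and 0.206 to 0.258 in knockout hearts. The ratio of Vtn to Pdgfrb was 0.739 to 0.835 in Sham WT, 0.528 to 0.745 after constriction in wild-type hearts and 0.897 to 1.11 in knockout hearts. The 2 comparisons with TAC WT share those 4 libraries, so a low TAC WT value enters both with opposite sign.

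Among 16 other contractile genes of smooth muscle, 1 rose and 1 fell in TAC WT against Sham WT, with a median log2 change of -0.06. These were the tropomyosin Tpm2 (0.99), which striated muscle also makes, and Pcp4l1 (-0.33). Between TAC KO and TAC WT, 6 rose and 1 fell, with a median of 0.13. Over all tested genes 15.7% were higher and 17.3% lower there, shares that also apply to the lists that follow. Actg2, the smooth muscle gamma-actin, was at 0.98 ± 0.245 CPM in TAC WT and reached 2.47 ± 0.478 CPM in TAC KO (SD, n = 4). Its log2 change was 1.35 by edgeR (adjusted p = 0.00157). Csrp1, a LIM-domain protein of smooth muscle, rose by 0.26, but was at 0.12 and lost its call without the GC and length trends (adjusted p = 0.22). Cald1, the actin-binding caldesmon, went from 127 ± 11.4 down to 74.4 ± 13.4 CPM (log2 -0.77, edgeR adjusted p = 0.000205). Without the GC and length trends the list had 3 up and 1 down.

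Of 8 regulators, which are SRF, its myocardin-family partners and factors that oppose or assist them, 1 rose and 1 fell in TAC WT against Sham WT. Klf4, a repressor of the contractile programme, rose by 0.45, and Gata6, a transcription factor of vascular smooth muscle, fell by 0.48. Which cells the RNA of these regulators came from cannot be told in whole-heart RNA. In TAC KO against TAC WT, which shares the TAC WT libraries, 1 rose and 3 fell, or 2 and 2 without the GC and length trends. Here Klf4 fell by 0.54 and Gata6 rose by 0.55. Srf fell as well (log2 -0.24, edgeR adjusted p = 0.0458), from 155 ± 21.4 to 132 ± 8.96 CPM (SD, n = 4). With voom the Srf call was lost (adjusted p = 0.0536), and 1 of the 8 fell, Klf4; without the GC and length trends Srf was at -0.41. Between TAC KO and Sham WT none of the 8 passed by edgeR or voom, 1 was higher at an unadjusted edgeR p under 0.05, and DESeq2 called 1. Without the GC and length trends 1 was higher there, Mrtfb (log2 0.30, edgeR adjusted p = 0.0023).

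Of 16 other pericyte markers, 1 rose and 3 fell in TAC WT against Sham WT. Abcc9, a subunit of ATP-sensitive potassium channels that cardiomyocytes also make, fell from 299 ± 23.8 to 206 ± 18.9 CPM (SD, n = 4). The adhesion molecule Mcam rose by 0.45. Between TAC KO and TAC WT, 4 rose and none fell, where 15.7% of all tested genes were higher and 17.3% lower. Those 4 included P2ry14 (0.96), the potassium channel gene Kcnj8 (0.30) and Ndufa4l2 (0.25). Without the GC and length trends, 4 rose and 1 fell, but these were not all the same genes. P2ry14 still passed at 1.29, while Kcnj8 (0.20, adjusted p = 0.0656) and Ndufa4l2 (0.05, adjusted p = 0.645) lost their calls.

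Platelet-derived growth factors are ligands of Pdgfrb and its relative Pdgfra. Of the 4 ligand genes and Pdgfra, edgeR called Pdgfc in each of the first 2 comparisons and none of the others. It rose from 2.93 ± 0.34 to 6.65 ± 2.7 CPM (SD, n = 4) with constriction and was at 3.22 ± 0.869 CPM in TAC KO. Pdgfb, the endothelial ligand that recruits pericytes, went from 92.6 ± 14.6 CPM in TAC WT to 77.4 ± 8.5 CPM in TAC KO and missed the threshold (log2 -0.26, edgeR adjusted p = 0.0669). Without the GC and length trends Pdgfb passed at -0.40 (adjusted p = 0.0119), which made 2 of the 5 genes lower in that comparison. Pdgfa was at -0.21 in TAC WT against Sham WT, which missed the threshold by edgeR (adjusted p = 0.0541) and passed with DESeq2, voom and without the trends (adjusted p = 0.0487, 0.00929 and 0.0438). It fell in TAC KO against Sham WT (-0.25).

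Notch3 itself did not pass, while 6 of 13 other Notch pathway genes fell in TAC KO against TAC WT and none rose. Over all tested genes 17.3% were lower and 15.7% higher. The median log2 change of the 13 was -0.29. The ligand gene Jag1 fell from 22.2 ± 1.22 CPM in TAC WT to 14.6 ± 1.35 CPM in TAC KO (SD, n = 4; log2 -0.60, edgeR adjusted p = 0.000437). The targets Nrarp (-0.63) and Hes1 (-0.41) fell too. The counts were 0 up and 6 down without the GC and length trends as well. In TAC WT against Sham WT, 1 rose (Nrarp, 0.43) and 1 fell (Hey2, -0.47).

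Genes of other cell types differed between TAC KO and TAC WT as well, where 15.7% of all tested genes were higher and 17.3% lower. Of 8 resident fibroblast markers 4 rose and none fell, and their sum was 1341 to 1647 CPM in TAC WT against 1654 to 1939 CPM in TAC KO. Of 7 macrophage markers 4 rose and none fell, with C1qb at 0.64, and their sum was 178 to 267 CPM in TAC WT against 255 to 353 CPM in TAC KO. Of 10 endothelial markers 2 fell, Kdr (-0.62) and Tek (-0.36), and their sum was 1960 to 2330 CPM in TAC WT against 1656 to 2034 CPM in TAC KO. Without the GC and length trends 3 fibroblast and 5 macrophage markers rose, with C1qb at 0.46, and 4 endothelial markers fell. With voom 3 fibroblast and 3 macrophage markers rose and 2 endothelial markers fell. Of 6 elastic vessel wall genes, 0 passed by edgeR, DESeq2 or voom, and 0 had an unadjusted p under 0.05 by each. Against Sham WT, 2 of the 6 were higher in TAC KO by edgeR, and 4 without the GC and length trends. Whether attached large vessel had a part was not tested. Of 9 tested activated fibroblast genes none rose and 1 fell, Meox1 (-0.88), with the same counts without the GC and length trends. Their list summed to 724 to 1303 CPM in TAC WT and 811 to 1212 CPM in TAC KO. Of 8 cardiomyocyte markers 2 rose, Myl3 (0.36) and Tnni3 (0.31), and none fell. Without the GC and length trends 1 of these 8 rose. The part of these cell types in the Tagln, Cnn1 and Vtn differences was not tested.

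Within groups the markers did not vary as 1 block. Pearson correlations of log2 CPM (pseudocount 0.125) after removing group means, over 12 libraries, are given as descriptions. They share library depth and composition. Tagln varied with Cnn1 (r = 0.71), or 0.55 without TAC KO 3. Its r of 0.65 with Myh11 and -0.69 with Smtn rested on TAC KO 3, without which they were 0.05 and -0.33. Acta2 varied against Cspg4 (-0.85, and -0.93 to -0.75 with each library left out) and had r = -0.20 with Tagln. Pdgfrb varied with Cspg4 (0.62, and 0.47 to 0.74 with each library left out), and Cspg4 with Notch3 (0.69, and 0.60 to 0.74). Among 12838 genes of at least 1 CPM, the genes most alike were Abhd3 (0.94), 2310040G24Rik (0.926) and Aven (0.926) for Acta2. For Smtn they were Sgip1 (0.94), Trim14 (0.938) and Kptn (0.931). For Rgs5 they were Ifi203 (0.951), Gprasp1 (0.94) and Slc5a3 (0.939), and for Pdgfrb they were Esm1 (0.928), Bmp1 (0.921) and Sec24b (0.909). No member was among these 12. Each was picked as a highest value among 12838 genes over only 12 libraries, so selection alone raises its r. How high r would be without any relation was not tested. With group means left in, r ran from -0.071 (Sec24b with Pdgfrb) to 0.948 (Ifi203 with Rgs5).

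The members lie at these positions of GRCm38, with identifiers as in the files. Acta2 (ENSMUSG00000035783.8) spans chromosome 19 from 34241090 to 34255590. Chromosome 9 carries Tagln (ENSMUSG00000032085.5, 45929619 to 45936058), Cnn1 (ENSMUSG00000001349.5, 22099216 to 22109630) and Cspg4 (ENSMUSG00000032911.6, 56865033 to 56899870). Chromosome 11 carries Smtn (ENSMUSG00000020439.17, 3517523 to 3540612) and Vtn (ENSMUSG00000017344.4, 78499091 to 78502324). Myh11 (ENSMUSG00000018830.10) lies on chromosome 16 from 14194535 to 14291372 and Notch3 (ENSMUSG00000038146.7) on chromosome 17 from 32120820 to 32166852. Rgs5 (ENSMUSG00000026678.10) lies on chromosome 1 from 169655501 to 169695813 and Pdgfrb (ENSMUSG00000024620.11) on chromosome 18 from 61045150 to 61085061. Opposite-strand genes also overlap 16.3% of the exonic bases of Smtn and 6.03% of those of Notch3, and stayed at or below 0.652 CPM. Acta2 shared 0.33% of its 50-base stretches with other genes, though the related Acta1 went from 312 to 692 CPM in Sham WT to 5756 to 8824 in TAC WT.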

How the data were processed

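RNA was sequenced from 12 mouse heart libraries, made per the labels from 250 ng of RNA with poly(A) selection and a strand-marking kit. The authors deposited raw counts per gene. GRCm38 is the build in the submitters' processing notes, which list, without roles, bcl2fastq, STAR and DESeq2, then featureCounts 1.6.4, FastQC 0.11.8, MultiQC 1.7, Trim Galore 0.5.0 and StringTie 1.3.5. Whether counting used strand is not stated in the sources used here. Groups came from the labels, and replicates were numbered in accession order. Libraries of a group differed by more than sampling noise (chi-square per degree of freedom 4.27 to 33.4).

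The members and gene lists were chosen with earlier results of these data known. Counts were tested in R 4.3.3 with edgeR 4.0.16 (quasi-likelihood F-test, TMM scaling, filterByExpr), with all 12 libraries in 1 fit. Benjamini-Hochberg adjustment ran over 15477 genes, and calls were made at an adjusted p under 0.05. The common biological coefficient of variation was 0.113. A limit of 3 counts equals 0.082 to 0.11 CPM per library and covers counting error only. CPM is TMM-scaled. Exon lengths came from GENCODE M21. The text named all 10 members, up to 3 genes of smallest p per other list and comparison, and the 3 genes most alike to each of 4 members. Genes named outside that rule (Pcsk7, Gm48529, Acta1) overlap or resemble a member.

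Alternatives were DESeq2 1.42.0, upper-quartile and RLE scaling, limma 3.58.1 voom with quality weights, TMM without mitochondrial genes, no filter, a filter of 1 CPM in 4 libraries, the 2 groups alone, each library left out, and GC and length trends (splines, 5 degrees of freedom) removed as offsets.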

Additional observations from a re-analysis of the deposited data

Results flagged for a closer look

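In 3 of the 30 groups of 4 values (10 genes in 3 groups), 1 library stood far from the other libraries of its group by Dixon's criterion, which chance meets in about 1 in 20 groups. Acta2 was at 213 CPM in TAC KO 2, where the others lay at 143 to 154 CPM. Tagln was at 93.4 CPM in TAC KO 3, above 53.9 to 60.0 CPM in the others. Smtn was at 254 CPM in Sham WT 4, above 227 to 231 CPM in the others.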

How the results depend on the processing

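Each member's log2 change was recomputed under 17 alternatives. Of 170 values per comparison, 149, 153 and 153 kept their direction and side of the threshold (TAC WT against Sham WT, TAC KO against TAC WT, TAC KO against Sham WT), and 12, 4 and 6 changed sign. Tagln, Cnn1 and Vtn kept their calls under every alternative in both TAC KO comparisons, as did Smtn and Cspg4 in TAC WT against Sham WT. In TAC WT against Sham WT, Rgs5 was -0.02 with voom and Notch3 was -0.02 with GC and length trends removed. In TAC KO against TAC WT, voom gave 0.01 for Acta2 and -0.01 for Notch3. In TAC KO against Sham WT, Myh11 was 0.01 with upper-quartile scaling and 0.03 with GC and length trends removed. With each library left out, log2 changes in TAC WT against Sham WT ran from -0.33 to 0.06 for Acta2, -0.05 to 0.32 for Cnn1, -0.05 to 0.10 for Rgs5 and -0.02 to 0.11 for Notch3. In TAC KO against TAC WT they ran from -0.28 to 0.10 for Acta2 and 0.0 to 0.08 for Notch3, and in TAC KO against Sham WT from -0.15 to 0.09 for Myh11. Members called down in TAC WT against Sham WT numbered 1, but 2 with DESeq2, no filter, the 2 groups alone or trends removed, 3 with voom and 1 to 2 with a library left out. Members called up there numbered 1 to 2 with a library left out. Members called down in TAC KO against TAC WT numbered 1, and 0 with trends removed. In TAC KO against Sham WT they numbered 2, but 1 with upper-quartile scaling or trends removed and 0 to 2 with a library left out. The cause of these moves was not tested. Myh11 passed in TAC KO against TAC WT with DESeq2 (0.0495), upper-quartile scaling (0.0459), no filter (0.0326) and trends removed (0.0325), values being adjusted p. Vtn passed in TAC WT against Sham WT with DESeq2 (0.0494), voom (0.0257), trends removed (0.0271), and without Sham WT 3 (0.0482) or TAC WT 3 (0.0101). Pdgfrb passed in TAC WT against Sham WT without TAC WT 2 (0.0478) and in TAC KO against TAC WT without TAC WT 4 (0.0357). In the other lists, the contractile genes up and down were 3 and 2 with voom in TAC WT against Sham WT (1 and 1 by edgeR) and 4 and 2 in TAC KO against TAC WT (6 and 1). The regulators were 2 and 1 with DESeq2 or voom in the first of these (1 and 1). Correlations with each library left out were added after the data were seen. Counts of all changed genes stayed within 1.5 times under each alternative. Depth limits Cnn1 most, with as few as 56 counts in a library.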
